A study of Mus musculus with 7 samples.

Results

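Nuclear receptors are transcription factors that bind small lipophilic ligands or act without a known one, and the genes described here are the members of that family outside the PPAR and HNF4 groups, together with the retinoic acid receptor Rarg. They were chosen from a list of 35 gene symbols, taking for each the probe set that carried this symbol and no other in the platform annotation, with the highest mean where there were several. Of the 35 genes, 31 had such a probe set among 14807 named genes. Nr1h2, Nr2e3 and Nr3c2 were not analysed here, and Esr2 was left out because its probe set also carried a second symbol. The Rev-erb and Nr4a receptors, Ppar genes, Rara, Rarb, Hnf4a and Hnf4g were not on the list.

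The 7 mouse samples were RNA from pancreatic islets, the endocrine cell clusters of that organ, hybridised to Affymetrix arrays. Knockout samples 5, 6 and 7 came from mice with a triple deletion of FoxO1, FoxO3 and FoxO4 restricted to the insulin-producing beta cells, and control samples 1 to 4 from wild-type (WT) littermates. Titles of the knockout samples read R+KO, and R+ is not explained in the labels. Both groups shared a mixed 129 x FVBn x C57BL/6 background and were matched for age and sex per the labels. The sources used here do not give the driver of the deletion, the ages or whether a sample was 1 animal or a pool. The p-values therefore cover only the spread among these 7 samples, and that spread may be technical. Islets hold many cell types that keep the FoxO genes, and in such bulk samples fewer cells of a type and less RNA per cell cannot be told apart.

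Nuclear receptors share a modular plan, with a zinc-finger domain that binds DNA and a domain that binds ligand and recruits coactivators or corepressors. Steroid receptors act mostly as homodimers, whereas the vitamin D, thyroid hormone, oxysterol, bile acid and xenobiotic receptors pair with a retinoid X receptor (RXR). Orphan members such as the estrogen-related receptors bind DNA without a regulating hormone and take their activity largely from coactivators such as PGC-1 alpha. FoxO proteins, which insulin signalling keeps out of the nucleus, bind DNA independently of this family. The comparison of knockout with control islets addresses which members of the family differed in RNA level when the 3 FoxO genes were deleted in beta cells.

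Values are the authors' deposited log2 signals, and each difference is the knockout mean less the control mean on that scale. Controls 3 and 4 lay apart from the other samples on the first principal component of the 14807 genes, which held 64.7% of the variance, at 43.2 and 30.3 against -29.0 to -3.40 in the other 5, and results are therefore also given without them. The 11 measured immediate early genes, quick responders to stimulation, had mean levels of 9.70 to 10.91 in knockout samples, 10.53 and 9.95 in controls 1 and 2 and 11.35 and 11.31 in controls 3 and 4. The label of islets was borne out by the hormone genes Ins2, Gcg and Sst, with means of 13.08, 13.58 and 13.63 over the samples. The brightest markers of the other cell type lists are given next with their differences over all samples, then without controls 3 and 4. For beta cells these were Iapp (0.034, SE 0.09, or -0.022) and G6pc2 (0.39, SE 0.17, or 0.14). Of the 13 measured beta cell markers 6 were positive, where 68.4% of all genes were, and 7 negative, with a median of -0.0045, or -0.022. G6pc2 was higher in every knockout sample than in every control, as 8.99% of all genes were. Slc30a8 (-0.24, SE 0.11, or -0.11) was lower in every knockout sample, as 1.94% were. For alpha cells the brightest markers were Gcg (0.024, SE 0.08, or -0.010) and Ttr (0.22, SE 0.12, or 0.11). The alpha cell transcription factor Pou3f4, named after its values were seen because it had an unadjusted p under 0.05, lay higher on average (1.20, SE 0.39, or 0.97). Its groups overlapped, with knockout 7 at 6.52 and control 1 at 6.94, and its adjusted p was 0.362 in limma. Of the 5 measured alpha cell markers 4 were positive, with a median of 0.08. Without controls 3 and 4, 2 were positive, where 58.5% of all genes were, with a median of -0.010. The brightest for PP and delta cells were Ppy (0.16, SE 0.11, or 0.06) and Sst (-0.005, SE 0.09, or -0.06). For the duct list they were Epcam (0.46, SE 0.33, or -0.12) and Sox9 (0.18, SE 0.19, or -0.011). For the nerve list they were Th (-0.18, SE 0.20, or -0.42) and Sox10 (0.15, SE 0.12, or 0.20). Epcam, with a mean of 11.58 over the samples, and Th, with 9.59, were far brighter than Sox9 at 8.13 and Sox10 at 6.93. Whether the signals of Epcam and Th came from duct and nerve cells here was not tested. Dusp1 (-0.39, SE 0.33, or 0.05) and Btg2 (-0.54, SE 0.48, or 0.19) led the immediate early genes. As a check of the genotype labels, Foxo4 lay lower in all 3 knockout samples than in all 4 controls (difference -0.47) and so did Foxo3 (-0.16), whereas Foxo1 overlapped (-0.26). All 3 genes lay lower in every knockout sample when controls 3 and 4 were left out. None of these 3 was past an adjusted p of 0.05 in limma (adjusted p = 0.362, 0.486 and 0.490).

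Among the 31 genes, the brightest signals in islets were those of Vdr, Rora and Nr3c1. Vdr, the vitamin D receptor, had 11.63, 11.92 and 12.28 in knockouts 5, 6 and 7, against 11.97, 11.68, 11.76 and 11.78 in controls 1 to 4, and its mean stood at percentile 99 among all named genes. Its lowest sample was brighter than the highest sample of any other of the 31 genes. Rora, a retinoid-related orphan receptor that activates clock genes, followed at percentile 92.1, and Nr3c1, the glucocorticoid receptor, at percentile 90.1, and the values of these neighbours overlapped. Nr2c2, the orphan testicular receptor 4, Thra, the thyroid hormone receptor alpha, and Nr6a1, the germ cell nuclear factor, completed the 6 brightest with means over all samples of 9.71, 9.33 and 9.02. In all, 11 of the 31 genes lay at or above the median level of all genes, 7.61.

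The 4 dimmest signals were those of Nr1h5, Rorb, Pgr and Nr1i3. Nr1h5, which encodes FXR beta, a relative of the bile acid receptor that is functional in the mouse, had 3.60, 3.54 and 3.57 in knockouts 5, 6 and 7, against 3.70, 3.63, 3.66 and 3.54 in controls 1 to 4, at percentile 2.55. Rorb, a receptor of retina and brain, had 4.33, 4.42 and 4.30 in knockouts 5, 6 and 7, against 4.20, 4.35, 4.13 and 4.32 in controls 1 to 4. The progesterone receptor gene Pgr had 4.65, 4.67 and 4.52 in knockouts 5, 6 and 7, against 4.78, 4.59, 4.64 and 4.57 in controls 1 to 4. Nr1i3, the xenobiotic receptor CAR, had 4.91, 4.89 and 4.75 in knockouts 5, 6 and 7, against 4.83, 4.95, 5.01 and 4.88 in controls 1 to 4. In each of these 4 genes the groups overlapped. The processing gives no detection call, so low values cannot be told apart from background signal. Each probe set has its own affinity, so the order is one of signals and not of transcript numbers. In the ordering, 24 of the 30 neighbouring pairs overlapped in their single values.

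**Figure D1:**
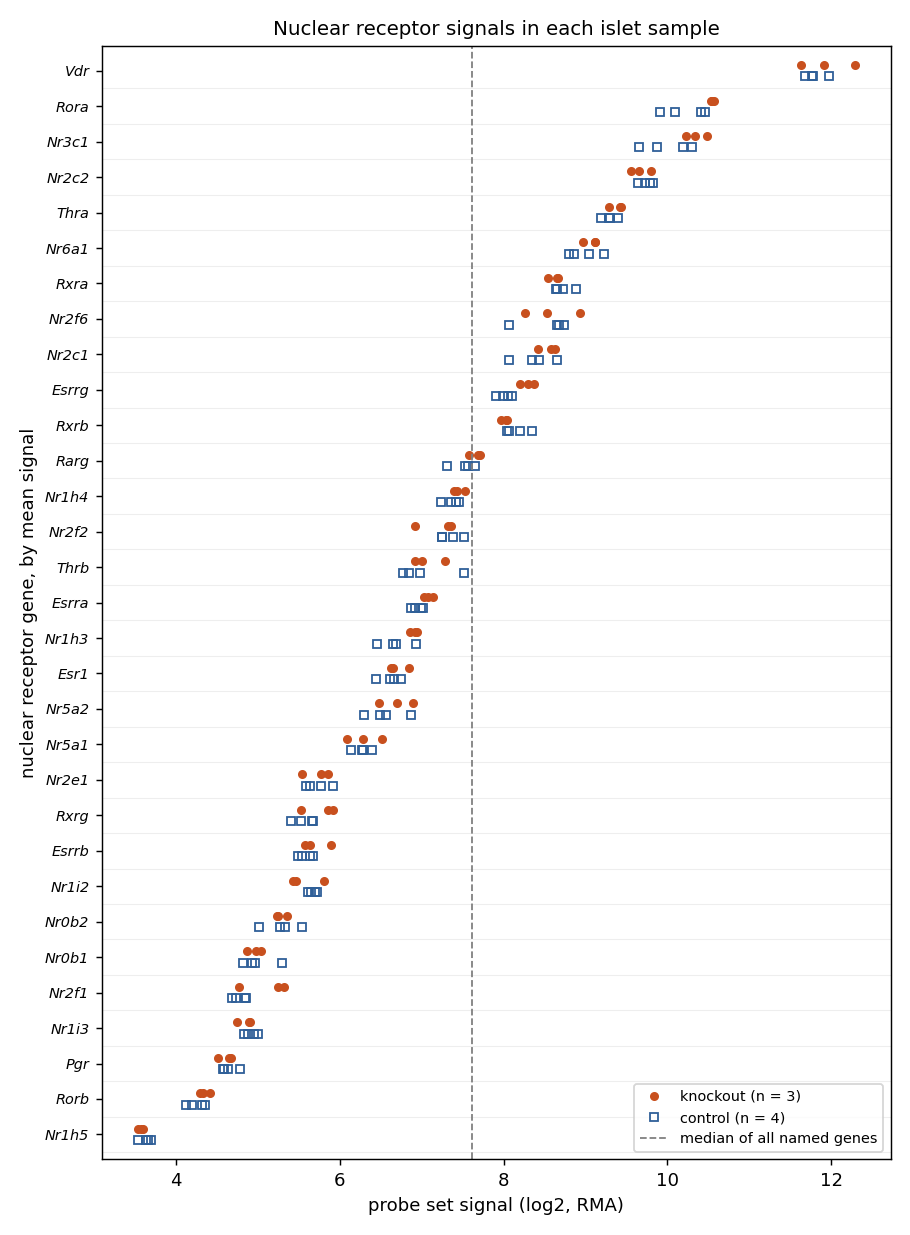
Log2 signal (horizontal axis) of each of the 31 nuclear receptor genes (vertical axis, ordered by mean) in the 3 knockout samples (filled circles, upper row of each gene) and the 4 control samples (open squares, lower row). The groups lie close together for every gene, while genes span from 3.61 for Nr1h5 to 11.86 for Vdr, and the dashed line marks the median of all named genes.

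No nuclear receptor gene passed the test between knockout and control islets after adjustment. With limma and Benjamini-Hochberg adjustment over all 14807 genes, 0 of the 31 members and 1 of all genes had an adjusted p under 0.05, a background of 0.00675%. At an unadjusted p under 0.05, 2 members, Esrrg and Nr2f1, were higher in knockout islets, where 11.6% of all genes were, and 0 were lower, where 2.14% of all genes were. All 3 knockout samples lay above all 4 controls for 3 members, Esrrg, Esrra and Rora, against 8.99% of all genes, and below them for 0, against 1.94%. These shares are near or below those of all genes.

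Differences of the members were small. They ran from -0.15 for Rxrb to 0.34 for Nr3c1, with a median of 0.09, against 0.08 for all genes. Among genes at or above the median level, the median was 0.09 for the members and 0.16 for all genes. The median size of the difference without regard to sign was 0.10 for the members and 0.14 for all genes. Positive differences were found for 20 of 31 members (64.5%) and 68.4% of all genes. Without controls 3 and 4, 1 member, Esrrg, was higher at an unadjusted p under 0.05, where 3.51% of all genes were, 0 were lower, and the median was 0.036, against 0.029 for all genes. In 9 members controls 3 and 4 both lay below the other 5 samples, a share of 29.0% against 30.1% of all genes. These 9 were Esrrb, Nr1h3, Nr2c1, Nr2f1, Nr3c1, Nr6a1, Rarg, Rora and Thra.

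**Figure D2:**
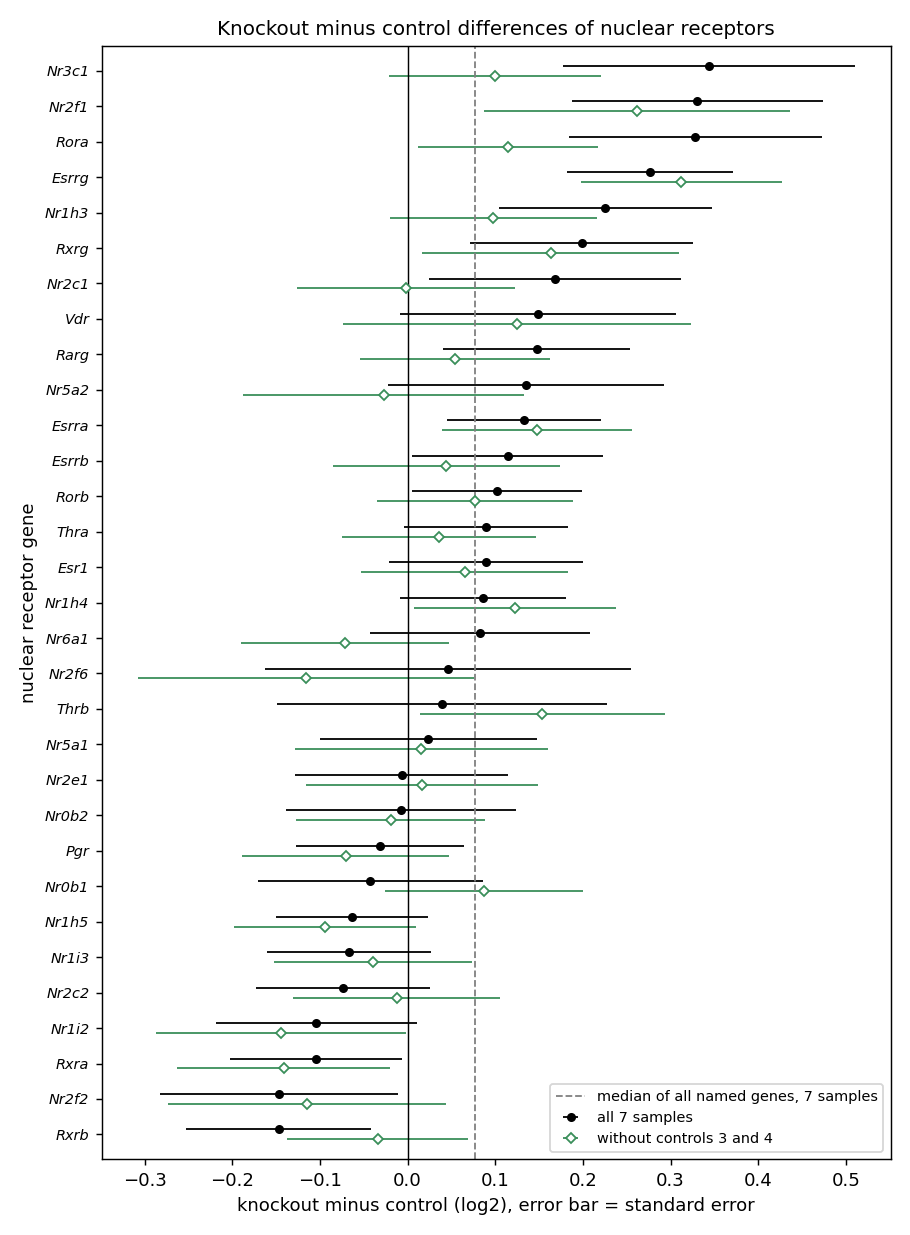
Knockout minus control difference in log2 signal (horizontal axis) of each nuclear receptor gene (vertical axis, ordered by difference), with all 7 samples (black circles) and without controls 3 and 4 (open green diamonds); bars are standard errors of the moderated test and the dashed line is the median of all named genes with 7 samples. Esrrg is at 0.28 with all samples and 0.31 without controls 3 and 4, and Nr2f1 at 0.33 and 0.26, whereas Nr3c1 and Rora are at 0.34 and 0.33 with all samples and at 0.10 and 0.11 without controls 3 and 4.

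Among the estrogen-related receptors, Esrrg and Esrra were higher in every knockout sample than in every control, by modest amounts. Esrrg encodes the gamma receptor, which in mouse is known for driving oxidative metabolism in maturing beta cells. It had 8.30, 8.20 and 8.37 in knockouts 5, 6 and 7, against 8.05, 7.91, 7.99 and 8.11 in controls 1 to 4. Its mean was 8.29 ± 0.08 in the knockout group (SD, n = 3) against 8.01 ± 0.09 in the control group (SD, n = 4), a difference of 0.28 (SE 0.09) or 1.21-fold, with an unadjusted p of 0.0186 and an adjusted p of 0.362 in limma. Controls 3 and 4 were not the lowest controls here, and without them the difference was 0.31 (SE 0.11), still without overlap. It remained positive under each of 16 alternative settings, between 0.19 and 0.32, with adjusted p values of 0.204 to 0.951.

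Esrra, the alpha receptor that acts with PGC-1 on mitochondrial genes, had 7.13, 7.08 and 7.03 in knockouts 5, 6 and 7, against 6.87, 6.99, 7.01 and 6.91 in controls 1 to 4. The lowest knockout value and the highest control value were thus nearly equal, and the groups overlapped once each array was centred on its median. The difference was 0.13 (SE 0.09, limma, adjusted p = 0.501), or 0.15 (SE 0.11) without controls 3 and 4. Esrrb, the beta receptor known from pluripotent stem cells, was dim, with 5.70 in knockout and 5.59 in control islets and overlapping values (difference 0.11, SE 0.11). One of the 4 Esrrg windows in the RefSeq promoter table, which holds 300 bases around each annotated start, is shown because Esrrg had the smallest p of the family. It lies at chr1:187608756-187609055 of GRCm38.p6 on the plus strand, and none of the 4 windows held the FoxO core motif TGTTTAC on either strand.
Esrrg: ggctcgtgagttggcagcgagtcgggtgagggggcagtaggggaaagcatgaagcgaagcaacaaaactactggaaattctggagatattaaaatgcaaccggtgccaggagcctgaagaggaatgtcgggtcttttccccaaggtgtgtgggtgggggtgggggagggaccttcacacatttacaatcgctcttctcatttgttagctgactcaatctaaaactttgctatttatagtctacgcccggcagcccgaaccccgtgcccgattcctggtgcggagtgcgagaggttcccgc

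Genes commonly cited as targets of the estrogen-related receptors, mostly of the respiratory chain and the TCA cycle, had positive differences for 15 of 17 measured members, where 68.4% of all genes had, with a median of 0.31. Among genes at or above the median level, this list also had 0.31, against 0.16 for all genes. By the unadjusted threshold 5 were higher, where 11.6% of all genes were, and 0 lower, where 2.14% were, and 0 passed the adjustment over all genes. Sdhb, a succinate dehydrogenase subunit, had 10.11, 9.83 and 9.58 in knockouts 5, 6 and 7, against 9.49, 9.54, 9.21 and 9.55 in controls 1 to 4, all knockout samples being higher (difference 0.40, SE 0.15). Ndufb5 of complex I differed by 0.78 (SE 0.30) and Tfam, the factor that packages and transcribes mitochondrial DNA, by 0.57 (SE 0.23), both with overlapping groups. Sdha and Atp5b were the other 2. The mean over this list was 9.38 to 9.64 in knockout samples. The controls 1 and 2 had 9.45 and 9.40, while it was 8.98 and 9.08 in controls 3 and 4. Without controls 3 and 4 the median was 0.10, against 0.029 for all genes. In that setting 13 of 17 differences were positive, where 58.5% of all genes were. By the unadjusted threshold 0 members then passed, where 3.51% of all genes were higher and 1.22% lower. Sdhb then differed by 0.33, Ndufb5 by 0.31 and Tfam by 0.32. The list includes Esrra itself, as other lists below hold some members.

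**Figure D3:**
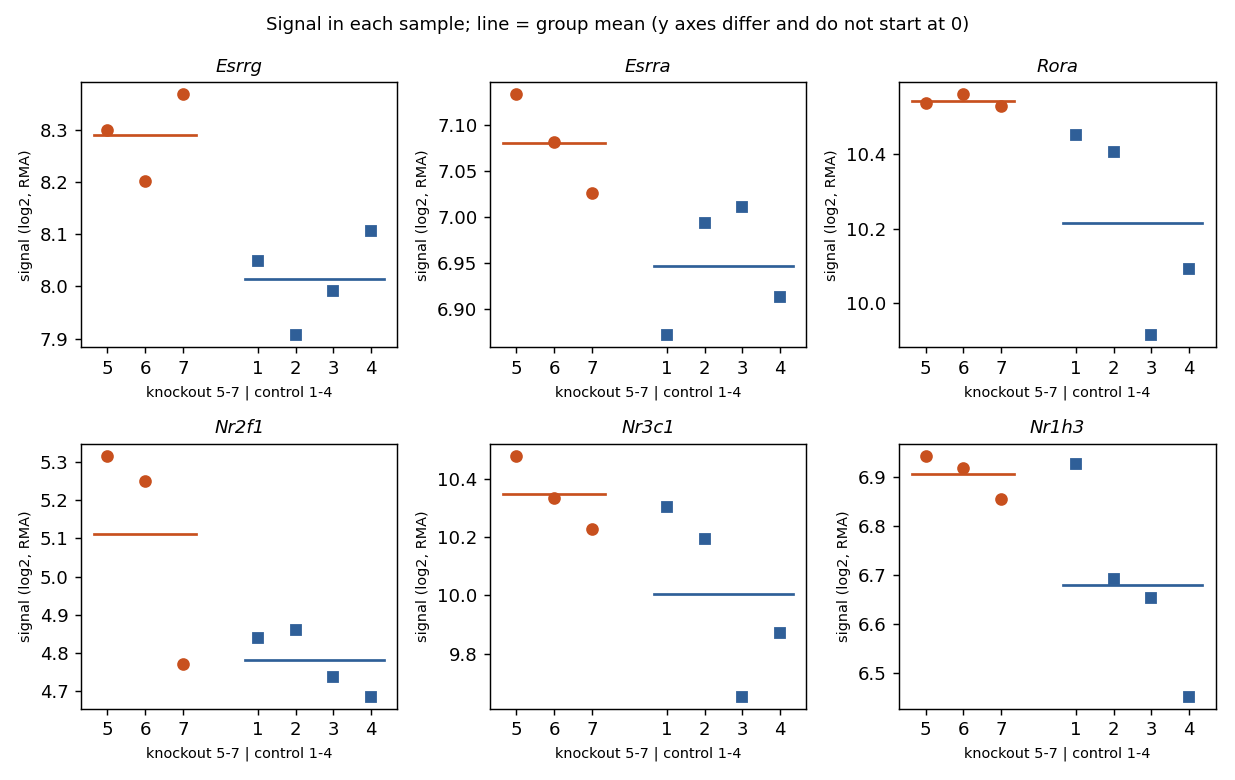
Log2 signal (vertical axis, a scale of its own in each panel that does not start at 0) of 6 nuclear receptor genes in knockout samples 5 to 7 (orange circles, left) and control samples 1 to 4 (blue squares, right), with group means as lines. Esrrg, Esrra and Rora do not overlap between the groups, Nr2f1 is high in knockouts 5 and 6 only, at 5.32 and 5.25, and controls 3 and 4 are the lowest samples for Rora, Nr2f1, Nr3c1 and Nr1h3.

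Rora and the glucocorticoid receptor gene Nr3c1 showed 2 of the 3 widest differences of the family, and in both the low values were those of controls 3 and 4. Rora had 10.54, 10.56 and 10.53 in knockouts 5, 6 and 7, against 10.45, 10.41, 9.91 and 10.09 in controls 1 to 4. The 3 knockout samples lay close together and just above controls 1 and 2, and the overall difference was 0.33 (SE 0.14, limma, adjusted p = 0.364). Without controls 3 and 4 it was 0.11 (SE 0.10), and after quantile normalization 0.13. Nr3c1 had 10.48, 10.34 and 10.23 in knockouts 5, 6 and 7, against 10.30, 10.19, 9.65 and 9.87 in controls 1 to 4, with knockout 7 below control 1. The difference was 0.34 (SE 0.17, limma, adjusted p = 0.380), and 0.10 (SE 0.12) without controls 3 and 4. The immediate early genes, given above, were highest in these 2 controls, and their part in the result was not tested.

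The remaining ROR and steroid receptors overlapped between groups. Rorb differed by 0.10 (SE 0.10). Esr1, the estrogen receptor alpha, had 6.64, 6.85 and 6.62 in knockouts 5, 6 and 7, against 6.66, 6.62, 6.74 and 6.44 in controls 1 to 4 (difference 0.09, SE 0.11, limma, adjusted p = 0.751). Pgr averaged 4.61 in knockout and 4.64 in control islets. Genes cited as targets of the glucocorticoid and mineralocorticoid receptors had a median of 0.038 over 14 measured members, with 0 at an unadjusted p under 0.05 in limma and so 0 past the adjustment. The smallest p values of that list belonged to Cdkn1a, a cell cycle inhibitor, with 0.79 (SE 0.43), to Ddit4, an inhibitor of mTOR signalling, with -0.68 (SE 0.42), and to the clock gene Per1 with -0.58 (SE 0.39). They differed by 0.07, -0.017 and -0.10 without controls 3 and 4. Estrogen and progesterone receptor targets, 12 genes, had a median of 0.018 and again 0 at an unadjusted p under 0.05. Xbp1, a factor of the unfolded protein response, had 0.44 (SE 0.22), Igfbp4, a binding protein for insulin-like growth factors, -0.21 (SE 0.11), and Nrip1, a corepressor, 0.42 (SE 0.24). These values were 0.08, -0.22 and 0.09 without controls 3 and 4.

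Of the COUP-TF orphan receptors, which repress or activate many genes in development, Nr2f1 was higher in 2 of the 3 knockout samples. It had 5.32, 5.25 and 4.77 in knockouts 5, 6 and 7, against 4.84, 4.86, 4.74 and 4.69 in controls 1 to 4, so that knockouts 5 and 6 stood above all controls and knockout 7 lay among them. The difference was 0.33 (SE 0.14) or 1.26-fold, at an unadjusted p of 0.0486 and an adjusted p of 0.364 in limma. It was 0.26 (SE 0.17) without controls 3 and 4, 0.23 without knockout 5 and 0.50 without knockout 7, and its signal was dim, at percentile 14.6. Nr2f2, its close relative, had 7.32, 7.36 and 6.92 in knockouts 5, 6 and 7, against 7.25, 7.38, 7.51 and 7.24 in controls 1 to 4, and knockout 7 was the lowest sample. The difference was -0.15 (SE 0.14, limma, adjusted p = 0.649), and a second, dimmer probe set of Nr2f2 gave 0.024 (SE 0.17). Nr2f2 is known from venous endothelium and mesenchyme as well as from islet cells. The mean level of the 8 endothelial markers was 8.93 to 9.05 in knockout and 8.91 to 9.39 in control samples. The median difference was -0.14, and 6 of 8 were negative, where 31.6% of all genes were. At an unadjusted p under 0.05, 2, Flt1 and Kdr, were lower, where 2.14% of all genes were. Leaving out controls 3 and 4 gave a median of -0.32 and 4 lower markers by that threshold, where 1.22% of all genes were lower. The brightest, Emcn and Cdh5, had 0.34 (SE 0.22) and -0.10 (SE 0.26), or 0.027 and -0.50 without controls 3 and 4. The mean level of the 9 mesenchymal markers was 7.24 to 7.57 in knockout and 7.04 to 7.58 in control samples, with a median difference of 0.09, or -0.011 without controls 3 and 4. The brightest were Rgs5, a pericyte gene, and Dcn, a matrix proteoglycan, with 0.71 (SE 0.22) and 0.69 (SE 0.43), or 0.40 and 0.043 without those controls. Only Rgs5 was higher at an unadjusted p under 0.05, where 11.6% of all genes were. Its groups did not overlap, as those of 8.99% of all genes did not in that direction. The part of both lists in the result was not tested. Nr2f6, a further relative, differed by 0.047 (SE 0.21), or -0.12 (SE 0.19) without controls 3 and 4.

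The FoxO core motif TGTTTAC, searched on both strands, lay in 2 of 43 promoter windows of the 28 measured members that had one, and in 3.65% of all 32851 windows. The matches were in 1 of 2 windows of Nr2f1 and in 1 of 2 windows of Rxrb. Both are shown with the motif or its reverse complement in capitals, as they are the windows of the family with such a match. The Nr2f1 window is at chr13:78196400-78196699 on the minus strand and that of Rxrb at chr17:34032100-34032399 on the plus strand (RefSeq, GRCm38.p6, written in the direction of the gene).
Nr2f1: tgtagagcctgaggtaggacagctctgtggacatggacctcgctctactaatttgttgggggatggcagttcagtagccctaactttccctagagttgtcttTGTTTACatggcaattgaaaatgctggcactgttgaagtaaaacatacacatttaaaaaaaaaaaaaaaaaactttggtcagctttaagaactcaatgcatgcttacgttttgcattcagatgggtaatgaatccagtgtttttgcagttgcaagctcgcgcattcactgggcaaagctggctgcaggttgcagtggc
Rxrb: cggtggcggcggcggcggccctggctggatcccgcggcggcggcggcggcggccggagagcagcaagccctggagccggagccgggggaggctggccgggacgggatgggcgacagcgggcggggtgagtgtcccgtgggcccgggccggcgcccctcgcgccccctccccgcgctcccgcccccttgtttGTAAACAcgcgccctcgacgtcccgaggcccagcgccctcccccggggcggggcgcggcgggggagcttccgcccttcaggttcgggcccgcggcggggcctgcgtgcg
The half-site AGGTCA, which many nuclear receptors bind, was also searched on both strands and was found in 8 of the 43 windows, of as many genes, and in 16.3% of all windows. A match is a description of the letters and not of binding. Nr2f1 was the higher of these 2 genes in knockout islets at an unadjusted p under 0.05, whereas Rxrb had a negative difference.

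The receptors for vitamin D, thyroid hormone and retinoids and their RXR partners did not pass the test. For Vdr, knockout 7 was the highest of all 7 samples and knockout 5 the lowest, so that the knockout samples enclosed the controls, and the difference was 0.15 (SE 0.16, limma, adjusted p = 0.703). It was -0.021 without knockout 7 and -0.030 after quantile normalization. Thra had 9.29, 9.42 and 9.43 in knockouts 5, 6 and 7, against 9.39, 9.30, 9.19 and 9.29 in controls 1 to 4, all within a narrow range, and differed by 0.09 (SE 0.09, limma, adjusted p = 0.696). Thrb, the beta receptor for thyroid hormone, had 7.00, 6.92 and 7.28 in knockouts 5, 6 and 7, against 6.98, 6.85, 6.77 and 7.51 in controls 1 to 4. Control 4 was its highest sample and the other 3 controls were, with knockout 6, the lowest, with a difference of 0.039 (SE 0.19). Rarg, the retinoic acid receptor gamma, differed by 0.15 (SE 0.11). Among the RXR genes, Rxra had 8.55, 8.65 and 8.66 in knockouts 5, 6 and 7, against 8.88, 8.64, 8.65 and 8.72 in controls 1 to 4 and differed by -0.10 (SE 0.10, limma, adjusted p = 0.655). Rxrb, brightest in control 3 at 8.35, differed by -0.15 (SE 0.11), or -0.034 (SE 0.10) without controls 3 and 4. Rxrg had 5.86, 5.91 and 5.53 in knockouts 5, 6 and 7, against 5.53, 5.68, 5.66 and 5.40 in controls 1 to 4, with knockouts 5 and 6 above all controls and knockout 7 among them. Its difference was 0.20 (SE 0.13, limma, adjusted p = 0.486).

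Targets of these receptors also stayed short of the threshold. For thyroid hormone 9 of 10 measured genes had positive differences, where 68.4% of all genes had, with a median of 0.09 near that of all genes, and 0 had an unadjusted p under 0.05. Without controls 3 and 4, 6 of 10 were positive, where 58.5% of all genes were, with a median of 0.0045, against 0.029 for all genes. Gpd2, the mitochondrial glycerol-phosphate dehydrogenase, had -0.30 (SE 0.14), Cpt1a, which admits fatty acids to mitochondria, 0.23 (SE 0.16), and Dio1, a deiodinase of thyroid hormone, 0.84 (SE 0.49). Dio1 averaged 10.19 ± 0.30 in knockout (SD, n = 3) and 9.35 ± 1.01 in control islets (SD, n = 4), the lowest samples being controls 3 and 4 at 8.80 and 8.25, and without those 2 controls its difference was 0.009, that of Gpd2 -0.18 and that of Cpt1a 0.012. Bile acid, xenobiotic and vitamin D targets, 13 genes, had a median of 0.026 and 0 at an unadjusted p under 0.05. S100g, the calcium-binding protein calbindin-D9k, had -0.16 (SE 0.08) with every knockout sample lower, as 1.94% of all genes had. Its signal was dim, at percentile 5.00. Abcb1a, a drug efflux pump, had 0.17 (SE 0.12), and Cyp2b10, a target of CAR, 0.16 (SE 0.11). The 3 differences were -0.17, 0.06 and 0.09 when those controls were left out.

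Of the sterol, bile acid and xenobiotic receptors, Nr1h3 had the widest difference. Nr1h3 encodes LXR alpha, an oxysterol receptor of liver and macrophages, and had 6.94, 6.92 and 6.86 in knockouts 5, 6 and 7, against 6.93, 6.69, 6.65 and 6.45 in controls 1 to 4. Control 1 reached the level of the knockout samples and control 4 was the lowest, with a difference of 0.23 (SE 0.12, limma, adjusted p = 0.411) that was 0.10 (SE 0.12) without controls 3 and 4. The 9 measured macrophage and immune markers averaged 6.72 to 6.78 in knockout and 6.59 to 7.11 in control samples, with a median difference of -0.009 and 0 of 9 at an unadjusted p under 0.05. The median was -0.21 without controls 3 and 4, and 1 marker was lower by that threshold, where 1.22% of all genes were. The brightest, the complement gene C1qa and the growth factor receptor Csf1r, had -0.17 (SE 0.13) and -0.29 (SE 0.29), or -0.21 and -0.66 without those controls, and the part of these markers in the result was not tested. Nr1h4, the bile acid receptor FXR, averaged 7.45 ± 0.07 in the knockout group (SD, n = 3) against 7.37 ± 0.10 in the control group (SD, n = 4) and differed by 0.09 (SE 0.09). Nr1h5, Nr1i2, which encodes the xenobiotic receptor PXR, and Nr1i3 had differences of -0.06, -0.10 and -0.07. Among 14 LXR targets 2 were higher and 1 lower by the unadjusted threshold, against 11.6% and 2.14% of all genes, with a median of 0.08, and 0 passed the adjustment. Lpl, lipoprotein lipase, was the lower one, with 9.79, 9.74 and 9.81 in knockouts 5, 6 and 7, against 10.18, 10.19, 10.06 and 10.06 in controls 1 to 4 and a difference of -0.34 (SE 0.09), or -0.40 without controls 3 and 4. Smpdl3a, a phosphodiesterase induced by LXR ligands, had 1.08 (SE 0.41), or 0.42 without controls 3 and 4, and Plin2, a lipid droplet coat protein, 0.21 (SE 0.09), or 0.21.

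The Nr5a, Nr6a, testicular and DNA-binding-domain-less receptors overlapped between the groups. Nr5a2, known as LRH-1 and most active in exocrine pancreas and liver, had 6.90, 6.69 and 6.48 in knockouts 5, 6 and 7, against 6.56, 6.87, 6.30 and 6.49 in controls 1 to 4, a difference of 0.13 (SE 0.16, limma, adjusted p = 0.737). The 7 measured acinar markers averaged 8.98 to 9.58 in knockout and 8.37 to 9.55 in control samples, highest in knockout 5 and lowest in control 4. Their median difference was 0.16, with 5 of 7 positive, where 68.4% of all genes were. Without controls 3 and 4 the median was -0.09, with 2 positive, where 58.5% of all genes were. Only Bhlha15 (0.41, SE 0.17, or 0.13 without controls 3 and 4) was higher at an unadjusted p under 0.05, where 11.6% of all genes were. The brightest were the protease genes Ctrb1 and Cpa1 (0.09, SE 0.39 and -0.05, SE 0.35), at -0.30 and -0.34 without controls 3 and 4. The part of the markers in the result was not tested. Nr5a1, the steroidogenic factor, and Nr6a1 differed by 0.024 and 0.08, and Nr6a1 had 8.96, 9.12 and 9.12 in knockouts 5, 6 and 7, against 9.05, 9.23, 8.80 and 8.86 in controls 1 to 4, with overlap. Nr2c2 had 9.56, 9.66 and 9.80 in knockouts 5, 6 and 7, against 9.73, 9.64, 9.83 and 9.79 in controls 1 to 4 and differed by -0.07 (SE 0.10), while Nr2c1, the related testicular receptor 2, differed by 0.17 (SE 0.14), or -0.0015 without controls 3 and 4. Nr2e1, a receptor of neural stem cells, differed by -0.007. Nr0b1 and Nr0b2 encode DAX-1 and SHP, which lack the DNA-binding domain and inhibit other receptors. Nr0b1 had 4.87, 4.98 and 5.04 in knockouts 5, 6 and 7, against 4.93, 4.82, 5.30 and 4.97 in controls 1 to 4, highest in control 3, and Nr0b2 had 5.23, 5.36 and 5.25 in knockouts 5, 6 and 7, against 5.33, 5.27, 5.54 and 5.01 in controls 1 to 4, with control 3 the highest and control 4 the lowest sample. Their differences were -0.042 and -0.007. The 11 targets and partners of Nr5a2 had a median of -0.0043 and 0 at an unadjusted p under 0.05. The smallest p values there were those of Scarb1, a lipoprotein receptor, Ptf1a, the acinar transcription factor, and Cel, a pancreatic lipase, with 0.14 (SE 0.19), -0.09 (SE 0.13) and 0.16 (SE 0.35). With controls 3 and 4 left out they were -0.11, -0.12 and -0.09.

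Corepressors and coactivators, which nuclear receptors recruit to chromatin, did not pass the adjustment. At an unadjusted p under 0.05, of 11 corepressors 3 were higher, where 11.6% of all genes were, and 0 lower, where 2.14% were. These 3 did not overlap between the groups, as 8.99% of all genes did not in that direction. They were Hdac2, a histone deacetylase, with 0.62 (SE 0.20), Hdac3, the deacetylase of the NCoR complex, with 0.32 (SE 0.13), and Lcor, a ligand-dependent corepressor, with 0.38 (SE 0.15). Without controls 3 and 4 they differed by 0.36, 0.14 and 0.14. In that setting 0 members had an unadjusted p under 0.05, where 3.51% of all genes were higher and 1.22% lower. The list's median was then 0.034, where that of all genes was 0.029, against 0.19 with all samples. Of 15 coactivators 1 was higher by that threshold and 1 lower, where 11.6% and 2.14% of all genes were. The higher one was Pnrc2 with 0.87 (SE 0.33), or 0.34 without controls 3 and 4. The lower one was the chromatin remodeller Smarca4 with -0.34 (SE 0.15), or -0.27, while Trip4 had 0.31 (SE 0.14), or 0.16. The list's median was 0.008.

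Among 18 measured enzymes and transporters of receptor ligands, 3 were higher and 0 lower by that unadjusted threshold, against 11.6% and 2.14% of all genes, with a median of 0.08. Ch25h, which makes the oxysterol 25-hydroxycholesterol, had 5.01, 5.58 and 5.24 in knockouts 5, 6 and 7, against 4.61, 4.81, 4.73 and 4.81 in controls 1 to 4. Every knockout sample was above every control, and the difference was 0.54 (SE 0.14) with an adjusted p of 0.362 in limma. Cyp2r1, a vitamin D 25-hydroxylase, had 4.95, 4.73 and 4.68 in knockouts 5, 6 and 7, against 4.39, 4.37, 4.57 and 4.52 in controls 1 to 4, likewise without overlap and with a difference of 0.32 (SE 0.11). Without controls 3 and 4 the 2 differences were 0.57 and 0.40, although both probe sets were dim. Cyp7b1, an oxysterol 7 alpha-hydroxylase, differed by 0.69 (SE 0.24), or 0.36 without controls 3 and 4.

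The 10 measured nuclear receptors off the list had a median of 0.08, with 1 of them higher and 0 lower by the unadjusted threshold, against 11.6% and 2.14% of all genes. That one was Pparg, a receptor of fat storage, with 0.58 (SE 0.24), or 0.24 without controls 3 and 4. The next were the clock repressor Nr1d2 with 0.34 (SE 0.15) and the fatty acid receptor Ppara with 0.19 (SE 0.12), or 0.13 and 0.14 without controls 3 and 4. Without those controls 1 of these 10 genes was higher at an unadjusted p under 0.05, where 3.51% of all genes were. It was Hnf4g, with 0.46, against 0.25 (SE 0.17) with all samples.

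**Figure D4:**
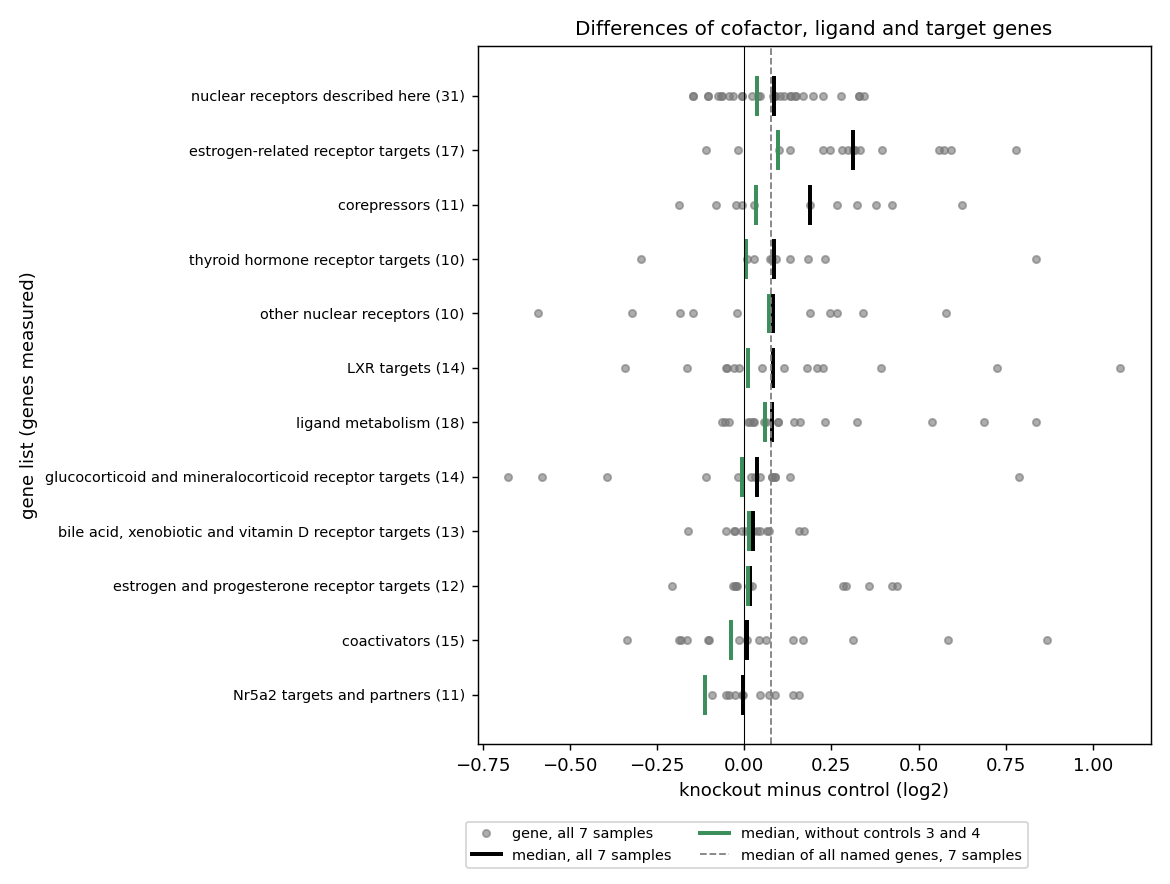
Knockout minus control difference in log2 signal (horizontal axis) of each measured gene (grey points) in 11 lists of cofactor, ligand and target genes and in the 31 nuclear receptors (vertical axis, number of genes in brackets), with medians over all 7 samples (black bars) and without controls 3 and 4 (green bars). The receptors and most lists centre near the median of all genes, 0.077 (dashed line), and the targets of the estrogen-related receptors have the highest median of those plotted, 0.31, which is 0.10 without controls 3 and 4.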

How the data were processed

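RNA was measured in islets of 7 mouse samples. The authors deposited log2 values per probe set, made by RMA, run in Affymetrix Expression Console as the submitters' processing notes list. The sources used here give no version, setting or genome build for it. The platform annotation gave 1 symbol for 14939 of 23238 probe sets, several for 989 and none for 7310. Of the 14939, 14884 were updated through RefSeq (GRCm38.p6) by Entrez ID and 55 kept the platform's symbol. The highest-mean probe set stood for each of 14807 genes, 131 of which had several. Array medians were 7.11 to 7.29, and the number of arrays limits the precision. The upper quartile of the signals was 8.63 and 8.81 in controls 3 and 4, against 8.88 to 8.95 in the other samples. The part of this offset in the differences was not tested.

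Knockout and control samples, grouped by their labels, entered 1 model in limma 3.58.1 (R 4.3.3) (moderated test, two-sided, no covariates, Benjamini-Hochberg over all genes, threshold 0.05). The exact two-sided rank-sum test of 3 against 4 samples cannot go below p = 0.0571, so it was not used. The model was tested on simulated data. Every member is named. Sample values are given for members with an unadjusted p under 0.05 or without overlap, for the 6 brightest and 4 dimmest and for a chosen set of members. For each pathway list the 3 genes with the smallest p and for each cell type the 2 brightest are named. Alternatives were quantile normalization, median centring, a filter on dim genes, averaging the probe sets of a gene, testing all probe sets, array weights, a robust trended prior, no moderation, and leaving out samples. Members and lists were chosen with earlier results of these data known. Promoter windows were searched by exact match. No protein sequences were used here.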

Additional observations from a re-analysis of the deposited data

Results flagged for a closer look

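Among the 4 controls, 1 value of the 31 receptors stood apart from the rest of its group by Dixon's criterion. Nr2f6, an orphan receptor related to COUP-TF, was at 8.06 in control 3, against 8.74, 8.65 and 8.67 in controls 1, 2 and 4. Knockouts 5, 6 and 7 were at 8.27, 8.93 and 8.53. Chance flags about 1 in 20 such groups. The criterion was not applied to the 3 knockout samples.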

How the results depend on the processing

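Of 16 alternatives, 11 members had a value in all 16, and the other 20 in 15, since the filter on dim genes removed them. No member passed an adjusted p of 0.05 in limma in those in which it was tested, the lowest being 0.186. The sign held in those for 19 members and turned in at least 1 for 12, none of which had an unadjusted p under 0.05 with all samples. The sign turned after quantile normalization to -0.030 for Vdr, -0.054 for Thra, -0.045 for Nr6a1, -0.056 for Nr2f6 and 0.012 for Nr0b2. The sign turned with array weights to -0.020 for Nr6a1, 0.069 for Nr2e1, 0.022 for Nr0b2 and 0.033 for Nr0b1. The sign turned without controls 3 and 4 to -0.071 for Nr6a1, -0.12 for Nr2f6, -0.0015 for Nr2c1, -0.027 for Nr5a2, 0.016 for Nr2e1 and 0.087 for Nr0b1. With 1 sample left out at a time, the differences that turned sign ran from -0.099 to 0.077 for Nr0b2, -0.060 to 0.016 for Pgr, -0.068 to 0.20 for Thrb, -0.072 to 0.085 for Nr2e1, -0.13 to 0.20 for Nr2f6, -0.10 to 0.055 for Nr0b1, -0.085 to 0.13 for Nr5a1 and -0.021 to 0.30 for Vdr. The causes were not tested. The count of all genes past the adjustment, 1 with all samples, was 2 with array weights, 0 in the unmoderated test, over all probe sets or without controls 3 and 4, and 0 to 1 with 1 sample left out. Members at an unadjusted p under 0.05, 2 in all samples, numbered 1 with the filter on dim genes, quantile normalization, median centring, all probe sets or without controls 3 and 4, and 0 (without knockout 5) to 4 (without control 1) with 1 left out. Members without overlap, 3 in all samples, numbered 2 with median centring, where Esrra overlapped, and 2 with the filter. They numbered 4 without controls 3 and 4, and 3 to 7 with 1 left out, the most without knockout 7. Of the 4 without controls 3 and 4, 3 lay higher, where 13.0% of all genes did. The remaining 1, Nr1h5, lay lower, where 6.15% did. Shares of all genes for the counts with 1 left out are not given here. Pathway genes at an unadjusted p under 0.05, 17 in all samples, numbered 11 with the filter, 7 in the unmoderated test, 11 over all probe sets, 4 without controls 3 and 4 and 2 (without knockout 5) to 26 (without control 1) with 1 left out. The median difference of the members, 0.086, came to 0.025 with quantile normalization, to 0.036 without controls 3 and 4, and 0.057 to 0.11 with 1 left out. Positive differences after quantile normalization were 54.8% of members and 60.8% of all genes. No paired analysis was run, because the sample numbers run on from the controls to the knockouts and do not give litters or pairs.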
